A study of Mus musculus with 84 samples.

Results

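The cells described here are endothelial-sorted cells that hold transcripts of posterior Hox genes, those of paralog groups 9 to 13. Cells were selected on these Hox values themselves: a cell was taken when at least 1 Hox9 to Hox13 gene reached 10 TPM (a transcript level scaled to transcript length and to the same total in every cell), which gave 43 of the 84 cells of the series, or 51.2% (95% Clopper-Pearson interval 40.04% to 62.3%). They were compared with the 24 cells (28.6%, 19.2% to 39.5%) in which every such gene was under 1 TPM. The other 17 cells, with a highest value from 1 to under 10 TPM, form an intermediate set that enters no comparison. All intervals here cover counting error over cells only.

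All 84 are single cells of mouse embryos at E11.5 (embryonic days), taken from the aorta-gonad-mesonephros (AGM), the part of the trunk around the dorsal aorta. They were sorted for surface CD31 and CD144 and against CD41 and CD45, and were captured on a chip for cells of 10 to 17 µm. The labels give no strain, genotype or treatment and name no embryo or pool for any cell. The 84 cells therefore count as 1 sample: no test was run, and differences between the sets are descriptions of these cells. Neither the level of the AGM along the trunk nor the vessel a cell came from is given.

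Hox genes encode homeodomain transcription factors and lie in 4 clusters, A to D. Within a cluster, genes of low paralog number are expressed from anterior levels of the body axis and genes of high number from more posterior levels, so that the set of Hox genes a cell uses marks where along the trunk it formed. Paralog groups 9 to 13 belong to the lower trunk, limbs and tail. Proteins of the Meis and Pbx families bind DNA together with Hox proteins. In the AGM, arterial endothelium of the dorsal aorta includes the hemogenic endothelium from which blood stem cells arise.

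The values that chose the cells are given first, as a description. The table holds 16 Hox9 to Hox13 genes, and 13 of them reached 10 TPM in at least 1 cell. The highest posterior Hox value of a member had a median of 48.1 TPM, with quartiles of 23.7 and 99.9 TPM and a range from 10.1 to 850.7 TPM. Just inside the limit were members with 10.1 TPM of Hoxb9, 10.2 and 10.6 TPM of Hoxa9 and 12.6 TPM of Hoxd10. Just outside it were intermediate cells with 9.57 TPM of Hoxa10, 8.98 TPM of Hoxd9, and 8.67 and 8.16 TPM of Hoxa10. At the other limit, the comparison cells came as near as 0.90, 0.88, 0.81 and 0.71 TPM, all of Hoxc9.

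Genes of the HoxA cluster on chromosome 6 were found most often. Hoxa10 reached 10 TPM in 22 members, at a median of 81.5 TPM in those cells and up to 850.7 TPM, and Hoxa9 did in 19, up to 114 TPM. Either of them was present at that level in 32 of the 43 members, and both together in 9. Of the other group 9 genes, Hoxb9 (chromosome 11) reached 10 TPM in 8 cells, in 6 of them as the only posterior Hox gene at that level, Hoxd9 (chromosome 2) in 5 and Hoxc9 (chromosome 15) in 4. Hoxc9 was the gene most often present at a low level, from 1 to under 10 TPM in 22 of the 84 cells. Hoxc10 reached 10 TPM in 13 cells, up to 302.5 TPM, and Hoxd10 in 8, up to 129 TPM.

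Transcripts of groups 11 to 13 were sparse. Hoxa11, Hoxc11 and Hoxd11 each reached 10 TPM in 2 cells, Hoxc12 and Hoxd12 in 1 each, and Hoxc13 in 2, with up to 265.9 TPM. Hoxd13 stayed at or below 4.55 TPM, and Hoxa13 and Hoxb13 were detected, that is at 1 TPM or more, in 0 of 84 cells. The highest group at 10 TPM was 9 in 12 members, 10 in 23, 11 in 5, 12 in 1 and 13 in 2.

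**Figure D1:**
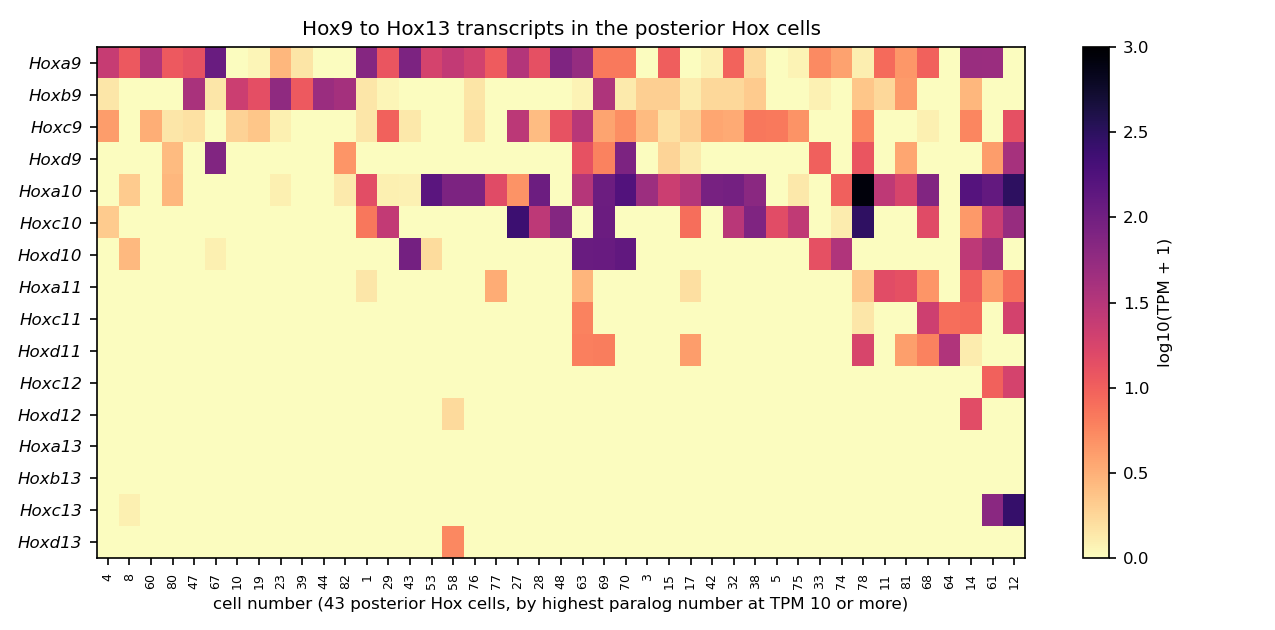
TPM of the 16 Hox9 to Hox13 genes (rows) in each of the 43 posterior Hox cells (columns, named by cell number and ordered by the highest paralog group at 10 TPM or more), as log10(TPM + 1) in colour. Hoxa9 and Hoxa10 fill most columns, Hoxb9 stands mostly alone, and values of groups 11 to 13 at 10 TPM or more are in the 8 cells at the right, with lower values of these groups in some cells further left.

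Most members held few of these genes at once. At 10 TPM, 19 members held 1 gene, 13 held 2, 5 held 3, 3 held 4, 2 held 5 and 1 held 7. The genes came from 1 cluster in 26 members, from 2 in 12, from 3 in 4 and from all 4 in 1. Cluster A supplied a gene in 32 members, C in 14, D in 12 and B in 8. Neighbouring genes of a cluster overlap in the annotation in places, and the strand used in counting is not given in the sources used here. Reads of such neighbours, and of antisense transcripts, cannot be told apart.

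By their markers the members were endothelial cells with few exceptions. Pecam1 and Cdh5, which encode CD31 and CD144, were both at 10 TPM or more in 39 of 43 members and in 20 of 24 cells without posterior Hox. Of 20 pan-endothelial genes, such as the VEGF receptor Kdr and the receptor tyrosine kinase Tek, a median of 18 reached 10 TPM in the members and 16.5 in the cells without. Fewer than 8 did in 3 members and 2 cells without. Cdh5 had a median of 138.4 TPM in the members and 137.2 TPM in the cells without. Markers of erythroid cells, macrophages, megakaryocytes, smooth muscle, skeletal muscle and epithelium had a median of 0 genes at 10 TPM in both sets. At least 3 skeletal muscle markers were at 10 TPM in 3 members and 3 cells without. Medians above 0 were found for germ cell markers (2 in the members and 1.5 in the cells without), mesenchyme (1 and 2) and neural or sympathetic markers (1 and 0). Of the germ cell markers, Nanog was at 10 TPM or more in 40 of 43 members and 23 of 24 cells without. Ifitm3 was at that level in 26 members and 10 cells without. Dppa3 and Dazl each reached it in 1 member and 0 cells without, so these medians do not show germ cell identity in typical members.

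Several cells stood apart and touch the results. Cell 4, a member by 22.6 TPM of Hoxa9, held all 10 germ cell markers at 10 TPM, among them Dppa3 at 2404 TPM and Dazl at 306.8 TPM, and all 20 endothelial markers as well. Primordial germ cells settle in the genital ridges of this region and also carry CD31. Cell 41, without posterior Hox, held all 6 megakaryocyte markers, with Pf4 at 35696 TPM. Members 23, 39 and 78 held 1, 2 and 4 of the 20 endothelial markers, and member 78 holds the highest posterior Hox value of all. Cells 13 and 65, without posterior Hox, held 2 and 0. Leaving these 7 out of the comparison left 39 members and 21 cells without.

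Collagen and other mesenchyme genes were found in both sets. At least 3 of 13 mesenchyme markers were at 10 TPM in 16 of 43 members (37.2%) and in 12 of 24 cells without. The markers ranged from 0 to 9 of 13 at 10 TPM in the members and from 0 to 7 in the cells without. The sets also differed in how many genes were detected per cell. Members held 4938 to 9548 genes with a median of 6961, intermediate cells 5704 to 10073 with a median of 7260, and cells without 3334 to 8174 with a median of 6572. Since TPM keeps no depth, whether the comparison cells lack posterior Hox transcripts or had them missed in capture cannot be told apart. Both quantities move with the sets, and their part in the differences was not tested; values with a linear term for genes detected, and without the cells with 3 or more mesenchyme markers (27 members and 12 cells without left), are given beside them.

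Genes other than the Hox9 to Hox13 genes were compared when detected in at least 10 of the 84 cells, which held for 11127. A difference is the mean log2(TPM + 1) in the members minus that in the cells without, and a gene is called here when it reaches 1 in either direction. Of the 11127 genes, 857 (7.70%) were called higher in the members and 141 (1.27%) lower, and the median over all genes was 0.18. With the linear term, 479 (4.30%) were higher and 414 (3.72%) lower, with a median of 0.01. Higher genes were 85.9% of all calls without the term and 53.6% with it. Of the 857, 445 were called with the term as well, and of the 141, 130 were. Without the cells with mesenchyme markers, 1443 (13%) were higher and 522 (4.69%) lower, from fewer cells, with 571 of the 857 and 75 of the 141 among them.

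**Figure D2:**
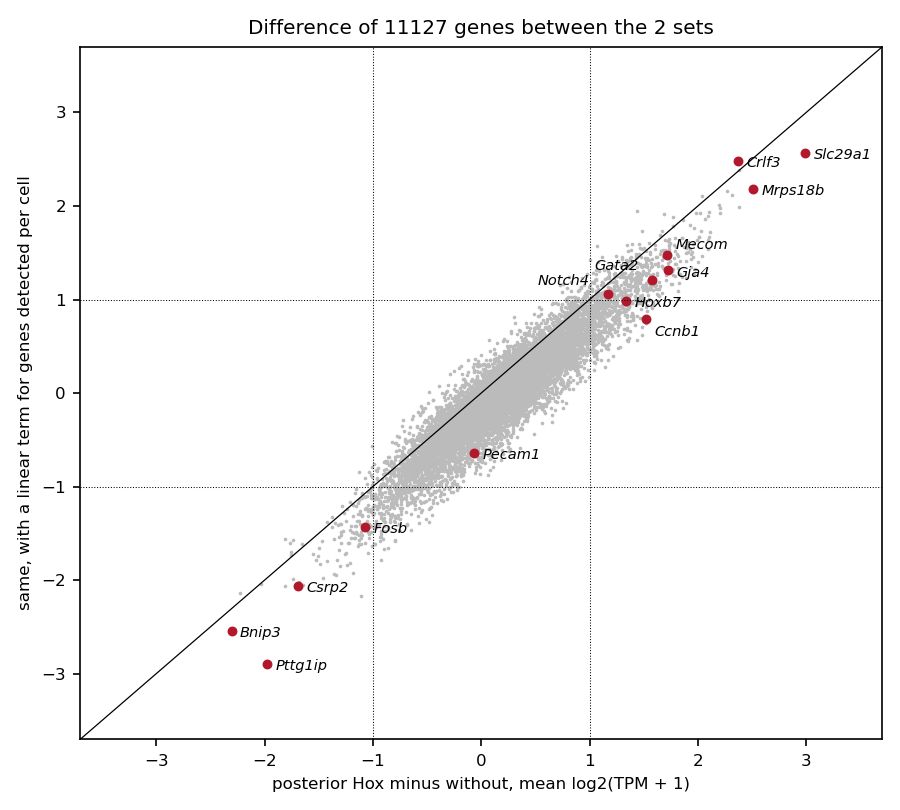
Difference of each of 11127 genes between posterior Hox cells and cells without, in mean log2(TPM + 1), without (horizontal) and with (vertical) a linear term for genes detected per cell. Dotted lines mark differences of 1 and -1, the solid line marks equal values, and named genes are in red. Most points lie below the solid line, while Slc29a1, Mrps18b and Crlf3 at the top and Bnip3 and Pttg1ip at the bottom lie past 1 or -1 on both axes.

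The largest difference was that of Slc29a1, which encodes the nucleoside transporter ENT1. Its TPM ranged from 0 to 619.6 in the members with a median of 125.8, and from 0 to 518.0 in the cells without with a median of 4.50. The ranges overlap, but 36 of 43 members and 9 of 24 cells without had 10 TPM or more. The difference was 2.99, or 2.57 with the linear term, and was positive within all 6 index sets that could be compared (cells sharing the second library index). It was 0.95 without the cells with mesenchyme markers. Mrps18b, a protein of the mitochondrial ribosome, had a median of 125.2 TPM (38 of 43 members detected) against 14.9 TPM (13 of 24), a difference of 2.51. Its difference was positive within 5 of 6 index sets, with a lowest value of -1.18.

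The other leading higher genes encode proteins of varied function. Rfc4, a subunit of the clamp loader of DNA replication, had medians of 171.6 TPM in the members and 50.05 TPM in the cells without, a difference of 2.27. Fzr1, an activator of the anaphase-promoting complex, was detected in 40 of 43 members and 13 of 24 cells without, with medians of 57.7 and 2.70 TPM and a difference of 2.38. Gtf2h2, a subunit of the transcription factor TFIIH (2.10), Psmd10, an assembly factor of the proteasome (2.21), and Eef1e1, part of the aminoacyl-tRNA synthetase complex (2.10), were also among the 15 largest. The remaining members of the 15 were Mthfsd (2.38), Crlf3 (2.37), Tbc1d7 (2.31), Get4 (2.20), Tmem183a (2.20), Swap70 (2.11), Fbxl6 (2.11) and Cpped1 (2.09). Fbxl6 had a median of 0 in both sets, and its value rests on 20 of 43 members against 2 of 24 cells. In the intermediate cells, the mean log2(TPM + 1) of Fzr1 (2.44) and Mthfsd (1.05) was under that of the cells without (2.93 and 1.31). For Crlf3, Tbc1d7, Tmem183a and Fbxl6 it was above that of the members. For the other leading higher genes it lay between the 2 sets.

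The largest difference in the other direction was that of Bnip3, which encodes a mitochondrial protein of mitophagy and the response to low oxygen. It ranged from 0 to 322.7 TPM in the members with a median of 9.52, and from 0 to 575.5 TPM in the cells without with a median of 111.6. It was detected in 25 of 43 and in 20 of 24 cells. The difference was -2.30, or -2.55 with the linear term and -2.08 without the cells with mesenchyme markers, and was negative within all 6 index sets. Csrp2, a LIM protein, was broadly present in both sets, with medians of 81.7 and 242.4 TPM and a difference of -1.69.

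Pomc, the precursor of melanocortin peptides, was found mainly in the cells without, and in 1 of 17 intermediate cells at 2.60 TPM. It was detected in 2 of 43 members, at 8.79 TPM at most, and in 10 of 24 cells without, at up to 146.6 TPM, a difference of -1.74. Further genes at the lower end were Rprd1a, a factor that binds the tail of RNA polymerase II (-2.23), Zfand1 (-2.03), Pttg1ip (-1.98), the ubiquitin ligases Trim32 (-1.81) and Rbck1 (-1.81), Sept6 (-1.77), the proline synthesis enzyme Aldh18a1 (-1.76), Gnpda2 (-1.75), 2700062C07Rik (-1.74), Rftn2 (-1.68), Arhgap11a (-1.65) and the caveolar gene Sdpr (-1.64). Within the 6 index sets, Zfand1 and Trim32 were negative in 4 and Sdpr in 3. All 30 leading genes were called with the linear term too. Without the cells with mesenchyme markers, 13 of the 15 higher and 11 of the 15 lower genes were.

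The promoters of a leading gene in each direction that has a single start listed in RefSeq are shown here to compare their CpG content. Each sequence is the 250 bases before the start on GRCm38.p6, minus strand, 5′ to 3′, with every CG in capitals. They lie at chr17:35916441-35916690 (Mrps18b) and chr7:138909507-138909756 (Bnip3).
Mrps18b: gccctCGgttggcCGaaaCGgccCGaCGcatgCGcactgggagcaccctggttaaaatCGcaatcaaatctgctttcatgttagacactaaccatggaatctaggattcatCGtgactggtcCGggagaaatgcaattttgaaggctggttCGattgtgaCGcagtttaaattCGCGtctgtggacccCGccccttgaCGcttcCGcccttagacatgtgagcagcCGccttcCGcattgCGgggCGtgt
Bnip3: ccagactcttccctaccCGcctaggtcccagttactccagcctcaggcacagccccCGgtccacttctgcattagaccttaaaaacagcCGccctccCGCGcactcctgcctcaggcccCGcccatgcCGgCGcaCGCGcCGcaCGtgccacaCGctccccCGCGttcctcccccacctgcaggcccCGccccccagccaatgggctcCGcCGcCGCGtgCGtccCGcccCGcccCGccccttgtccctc
They hold 20 and 24 CG pairs. The median was 17 over 671 promoters of called higher genes, 15.5 over 100 of called lower genes and 16 over 8483 of the genes compared, so both groups sit near the genes they were drawn from. The motifs TTTATGG and TGATTTAT, letters of the kind Hox and Pbx proteins bind, were searched on both strands. TTTATGG was in 10 of 671 promoters of called higher genes (1.49%), 0 of 100 of called lower genes and 1.38% of those of genes compared. TGATTTAT was in 2 of 671 (0.298%), 0 of 100 and 0.389%. The motifs share the letters TTTAT, so 1 stretch can count for both, and a match or its lack in this window says nothing on binding.

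Genes of arterial endothelium included 3 called higher in the members, Gja4, Notch4 and Cxcr4. Of 21 arterial genes, 15 were compared: 3 were called higher, where 7.70% of all genes were, and 0 lower. A difference above 0 was found for 12 of the 15 and for 7222 of all 11127 genes, and the median was 0.63 against 0.18 over all genes. With the linear term the median was 0.38 against 0.01, with 3 higher and 0 lower. Gja4, an arterial connexin (chromosome 4), was detected in 16 of 43 members (37.2%, 23% to 53.3%) and in 2 of 24 cells without (8.33%, 1.03% to 27%). It ranged from 0 to 1719 TPM in the members and from 0 to 301.4 TPM in the cells without, and its median was 0 in both. The difference was 1.72, 1.31 with the linear term and 2.87 without the cells with mesenchyme markers. It was positive within 5 of 6 index sets, with a lowest value of -0.88.

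Notch4, a Notch receptor of endothelium, was low but frequent in the members and in the intermediate cells. It was detected in 31 of 43 members, at a median of 4.09 TPM and up to 69.9 TPM. In the intermediate cells it was detected in 12 of 17, at a median of 2.79 TPM. In the cells without it was detected in 6 of 24, at a median of 0.17 TPM and up to 35.1 TPM. The difference was 1.17, positive within all 6 index sets. With a pseudocount of 10, which gives less weight to low values, it was 0.33. Cxcr4, the receptor for the chemokine Cxcl12, was detected in 13 members and 7 intermediate cells. It was found in 1 cell without, at 2.29 TPM, and its difference was 1.03 (0.87 with the linear term). The arterial genes detected most often were not called and had opposite signs. The co-receptor Nrp1 was found in 41 of 43 and 21 of 24 cells, with a difference of 0.58, and the ephrin ligand Efnb2 in 39 of 43 and 24 of 24, with a difference of -0.38. Acvrl1, a receptor of the TGF-beta family, was at -0.44. Of the 6 arterial genes too rare to be compared, Gja5 was found in 7 members and 0 cells without, Bmx in 6 and 2, Hey2 in 4 and 0, Nt5e in 4 and 0, Heyl in 4 and 3, and Tmem100 in 3 and 4.

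Genes of hemogenic endothelium and early blood cells were partly higher. Of 18, 13 were compared, with 4 called higher, 0 lower and a median of 0.44, or 0.28 with the linear term. Over all genes 7.70% were called higher. Without the cells with mesenchyme markers the median of the list was 0.16, below that of all genes, 0.22. Mecom, a transcription factor of blood stem cells and arteries, was detected in 28 of 43 members and 9 of 24 cells without. Its values ran from 0 to 170.9 TPM with a median of 10.96 in the members, and from 0 to 94.7 TPM with a median of 0.20 in the cells without. The difference was 1.72, positive within all 6 index sets, and 1.47 with the linear term. It was 0.21 when only the 11 cells with a posterior Hox gene at 100 TPM were taken as members.

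Gata2, a further transcription factor of the hemogenic list, was detected in 32 members and 12 cells without, with medians of 22.5 and 1.90 TPM and a difference of 1.58. It fell under the call with members at 100 TPM, at 0.70, and at 0.99 without index set 5. It was positive within 5 of 6 index sets, with a lowest value of -0.23. Cd34, a surface sialomucin, was at medians of 316.1 and 245.3 TPM with a difference of 1.27, which was 0.77 without the cells with mesenchyme markers. Kit, a receptor tyrosine kinase, had a difference of 1.04, and 0.31 without those cells; it is also a gene of germ cells. Runx1, which the emergence of blood cells requires, was detected in 2 members and 4 cells without, the other direction from the called genes of this list.

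Gja4, Mecom and Gata2 were seldom all in 1 cell. All 3 were detected in 9 of 43 members (20.9%, 10.04% to 36.04%), in 5 of 17 intermediate cells and in 1 of 24 cells without (4.17%, 0.11% to 21.1%). None of them was detected in 3 members, 5 intermediate cells and 8 cells without. Of the 17 intermediate cells, Gja4 was detected in 5, Mecom in 10 and Gata2 in 11.

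**Figure D3:**
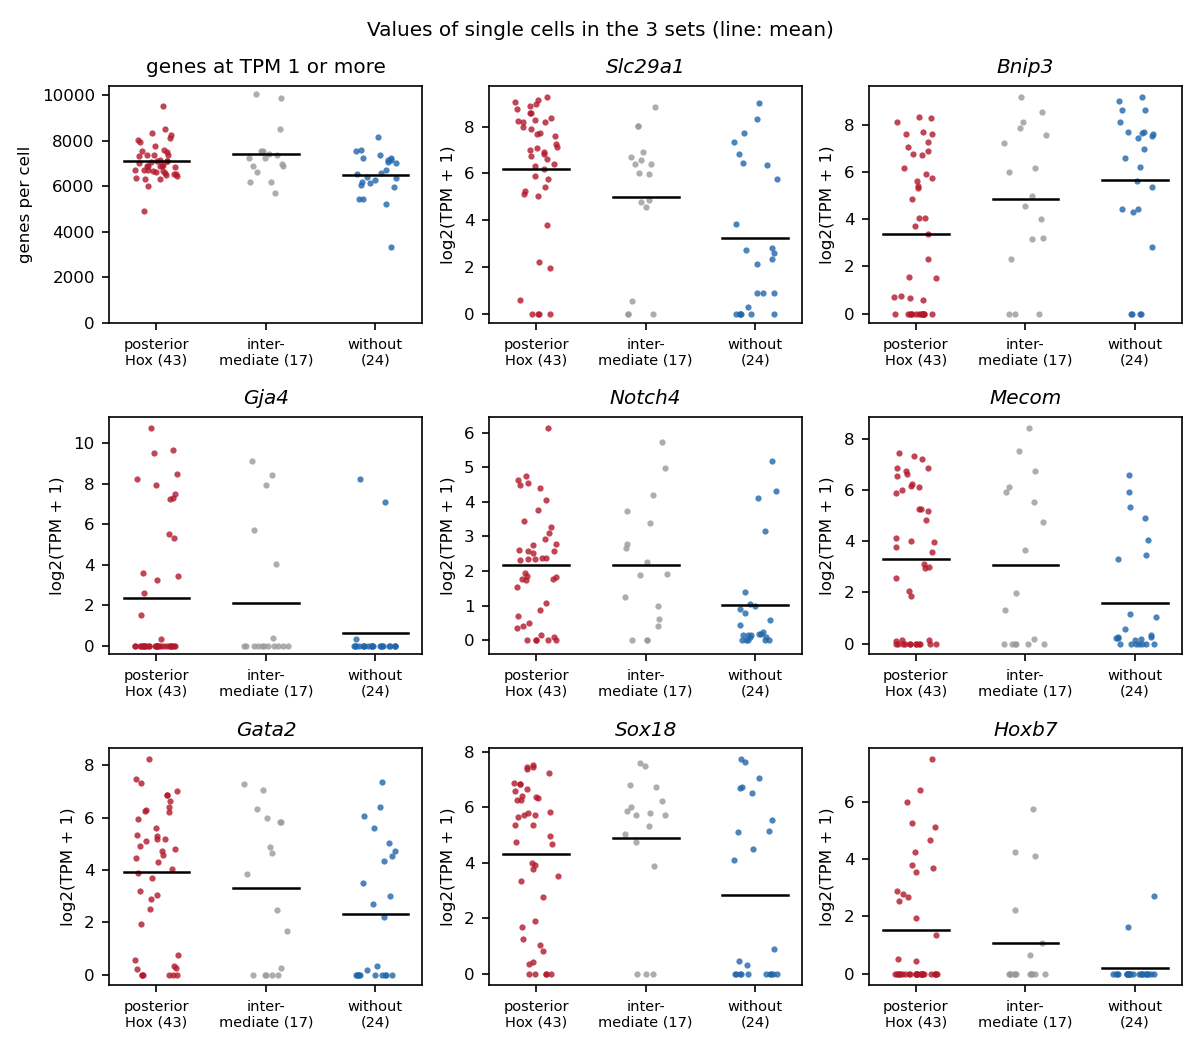
Values of single cells in the posterior Hox cells (43, red), the intermediate cells (17, grey) and the cells without (24, blue), for the number of genes at 1 TPM or more and for 8 genes as log2(TPM + 1), with horizontal jitter and a line at the mean. The ranges of the sets overlap in every panel, and the sets differ in how many cells lie near 0: Gja4 is at 1 TPM or more in 16 of 43 members and 2 of 24 cells without.

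Other endothelial lists had few calls. Of 9 venous genes compared, 0 were called, and their median was -0.03, or -0.51 without the cells with mesenchyme markers, where that of all genes was 0.22. Emcn was detected in all 43 members and all 24 cells without, at medians of 836.3 and 860.7 TPM. Among 20 pan-endothelial genes, 2 were called higher and 0 lower. They were Cd34 and Sox18, a SoxF transcription factor of endothelium, which was detected in 35 of 43 members and 11 of 24 cells without, with medians of 39.7 and 0.62 TPM and a difference of 1.45. Sox18 was at 0.90 without the cells with mesenchyme markers and at 0.63 without index set 6. Its difference was positive within 4 of 6 index sets, which ran from -3.53 to 5.63. Sox18 was also detected in 14 of 17 intermediate cells, at a median of 52.1 TPM. The pan-endothelial median was 0.24, but -0.18 with the linear term and -0.23 without the cells with mesenchyme markers. Of 7 lymphatic genes, Sox18, also on that list, was the only call, and the median was -0.07. Of 11 tip or angiogenic genes, Cxcr4 was the only call, with a median of 0.45 and 10 of 11 above 0, close to the hemogenic list. None of 11 basement membrane and matrix genes was called (median 0.07).

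Cell cycle genes leaned to the members, less so with the linear term. All 15 S-phase genes had a difference above 0, as did 7222 of all 11127 genes, and with the linear term 12 of 15 did against 5637 of 11127. Of the 15, 2 were called higher, against 7.70% of all genes: Mcm7, a subunit of the replicative helicase (1.24), and Ccne1, a cyclin of S-phase entry (1.16). Their median was 0.70, and 0.22 with the linear term. Mcm7 had medians of 143.9 and 99.8 TPM. Of 16 genes of G2 and mitosis, 2 were called higher, Ccnb1 (1.52) and Tpx2 (1.03), both under 1 with the linear term, and the median changed from 0.46 to -0.06 with it. It was 1.45 without the cells with mesenchyme markers. Ccnb1 has near-identical copies in the mouse genome, and its value is uncertain.

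Among the markers of other cell types, the 4 neural or sympathetic genes compared had the highest list median of all lists with 4 or more genes, 0.85, above the arterial 0.63. It was 0.93 with the linear term and 1.24 without the cells with mesenchyme markers, and all 4 differences were above 0. Stmn2, a tubulin-binding protein of neurons, was detected in 14 of 43 members, up to 1403 TPM, and in 2 of 24 cells without, a difference of 1.55. It was the only call of the 4, and 4 members held 3 or more of the 9 markers at 10 TPM against 0 cells without. Isl1, a LIM homeodomain factor of the flank list, was detected in 16 members and 4 cells without, a difference of 1.30. Of 10 mesenchyme genes, Col3a1 was called lower at -1.08 and 9 had a negative difference. Without the cells with mesenchyme markers, Col3a1 was at 0.49, and the list median changed from -0.29 to 0.17. Those cells were left out by these same genes, Col3a1 among them, so these values cannot be read apart from that choice. Ifitm3, called higher at 1.52 on the germ cell list, is also expressed beyond germ cells, and was at 0.75 with the linear term. Fosb was the only call of 11 stress genes, at -1.07, and the list median was -0.11. With the linear term 3 of the 11 were called lower, where 3.72% of all genes were, and the median was -0.32. It was 0.30 without the cells with mesenchyme markers.

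Regulators of Hox genes and of axial position showed few calls. Of 8 Meis, Pbx and Pknox genes compared, 0 were called, with a median of -0.02: Meis1 was at -0.56 and Pbx2 at 0.48. Of 13 retinoic acid genes, 0 were called (median 0.19), and of 18 Polycomb and trithorax genes, 0 were (median 0.14), with Suz12 at 0.73. Of 5 posterior axis regulators compared, Sall4, a zinc finger factor also of germ cells, was called higher at 1.01, on 12 members against 3 cells without. Over all lists and the Hox1 to Hox8 genes, 223 genes were compared, and 17 (7.62%) were called higher and 3 (1.35%) lower, close to the 7.70% and 1.27% of all genes. Of these 20, 10 were called with the linear term, 12 without the cells with mesenchyme markers, and 6 under both: Gja4, Notch4, Mecom, Gata2, Stmn2 and Mcm7. Over all genes, 445 of the 857 higher and 130 of the 141 lower calls were kept with the term. Without those cells, 571 and 75 were kept. The number kept under both was not counted over all genes, so the 6 have no share to be set against.

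**Figure D4:**
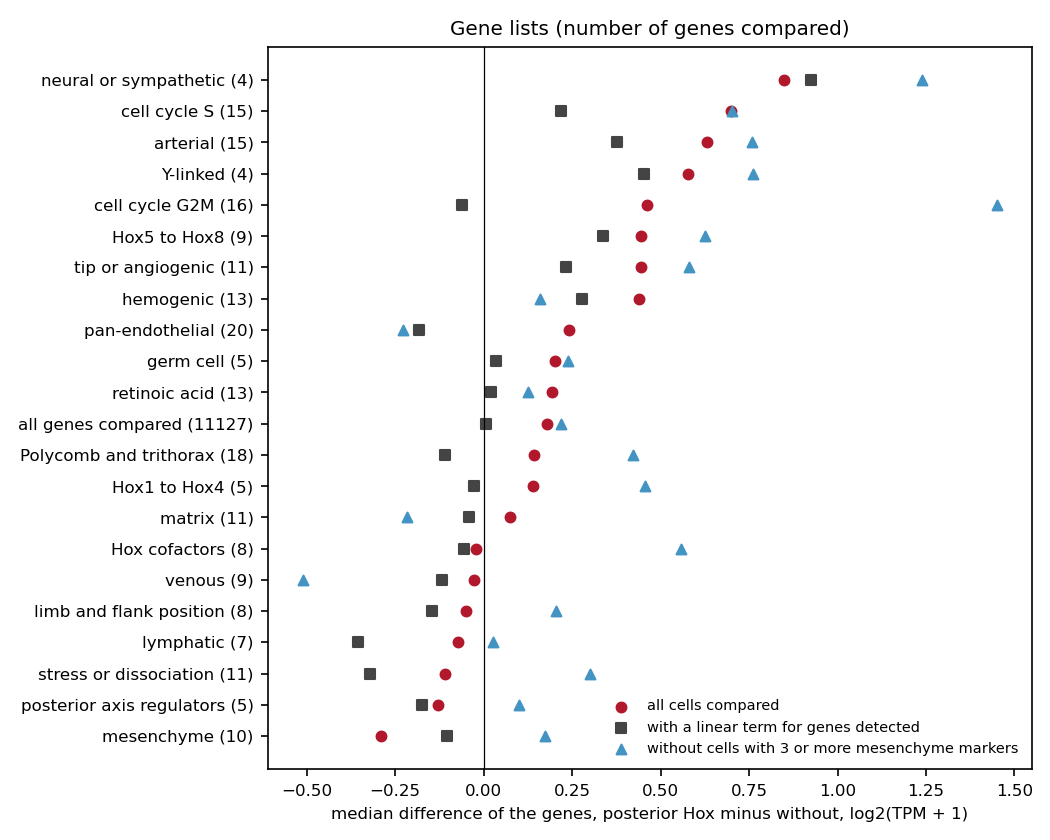
Median difference (posterior Hox minus without, log2(TPM + 1)) of the compared genes of each list with at least 4 of them, over all cells compared (red circles), with a linear term for genes detected (dark squares) and without cells with 3 or more mesenchyme markers (blue triangles). The arterial median stays at 0.38 or above in all 3, while that of G2 and mitosis genes runs from -0.06 to 1.45.

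Hox genes of lower number, which the choice of cells did not use, were present in both sets. At least 1 Hox1 to Hox4 gene reached 10 TPM in 22 of 43 members (51.2%, 35.5% to 66.7%) and 9 of 24 cells without (37.5%, 18.8% to 59.4%). For Hox5 to Hox8 the shares were 33 of 43 (76.7%, 61.4% to 88.2%) and 17 of 24 (70.8%, 48.9% to 87.4%). Most cells without posterior Hox transcripts therefore held other Hox transcripts.

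The paralog groups differed from each other. Group 7, close to the groups used, reached 10 TPM in 24 of 43 members (55.8%), 5 of 17 intermediate cells (29.4%) and 5 of 24 cells without (20.8%). Group 8 did in 16 of 43 (37.2%) and 10 of 24 (41.7%), and group 5 in 16 of 43 (37.2%) and 12 of 24. Hoxb7 was detected in 16 members, up to 179.5 TPM, and in 2 cells without, at 5.55 TPM at most, a difference of 1.34 (0.98 with the linear term). Hoxa7 was detected in 20 members and 6 cells without, with a difference of 0.83 (1.19 with the linear term), although its highest value, 498.0 TPM, was in a cell without. Hoxc5 was the only lower call, at -1.0, on 4 members and 6 cells without, and at 0.17 without the cells with mesenchyme markers.

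**Figure D5:**
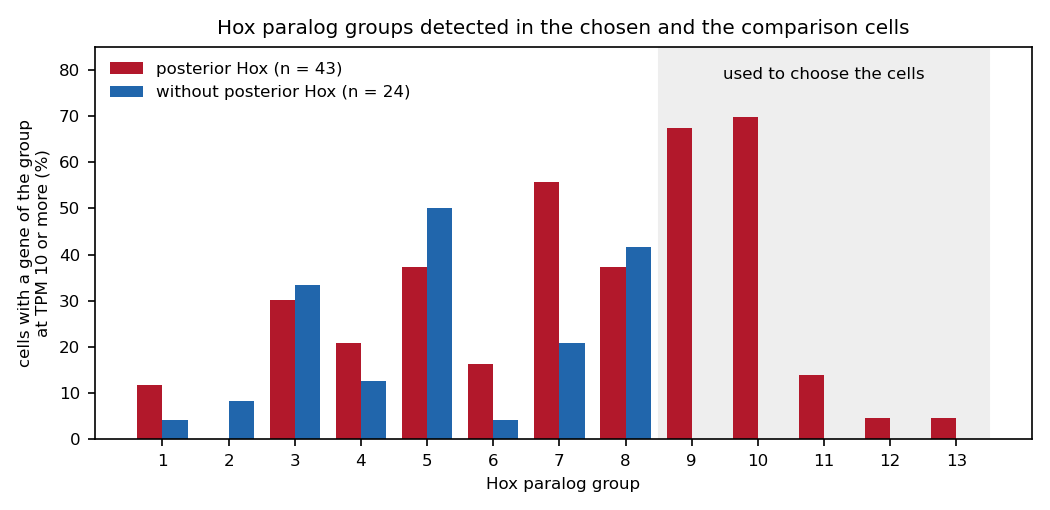
Share of cells with at least 1 gene of a Hox paralog group at 10 TPM or more (percent), in the 43 posterior Hox cells (red) and the 24 cells without (blue). Groups 9 to 13, shaded, were used to choose the cells, and of the others group 7 has the widest gap, 55.8% against 20.8%.

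Group 7 transcripts did not come only with posterior genes of their own cluster. Hoxa7 was detected in 15 of the 32 members with a posterior HoxA gene at 10 TPM (46.9%) and in 5 of the 11 without one (45.5%). Hoxb7 was detected in 2 of the 8 members with Hoxb9 at 10 TPM and in 14 of the other 35. Hoxd8, which neighbours Hoxd9, was detected in 8 of the 12 members with a posterior HoxD gene (66.7%) and in 13 of the 31 without one (41.9%).

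The members were also compared among themselves, by how posterior their Hox genes were. In 31 members a Hox10 to Hox13 gene reached 10 TPM, in 9 all of these were under 1 TPM, so that the choice rested on Hox9 genes only, and 3 fell between. The top posterior gene was Hoxb9 in Hox9-only cells 10, 19, 23, 39, 44, 47 and 82, and Hoxa9 in cells 60 and 67. Of cluster B, the data hold only Hoxb9 and Hoxb13 among the posterior genes. How posterior the genes were and the use of cluster B therefore cannot be told apart in this comparison. Genes detected per cell were similar, with medians of 6891 and 7109, and 13 of 31 and 3 of 9 held mesenchyme markers. Fewer than 8 endothelial markers at 10 TPM were found in 2 of the 9 Hox9-only cells, cells 23 and 39, and in 1 of the 31, cell 78. Of 11127 genes, 908 (8.16%) were called higher and 988 (8.88%) lower in the Hox10 to Hox13 cells, with a median of 0.00 over all genes. With 9 cells on one side, single cells weigh heavily. Of 20 pan-endothelial genes, 5 were called higher in the Hox10 to Hox13 cells and 0 lower, but 0 higher and 4 lower without those 3 cells. Without them, 2422 of all 11127 genes were called in either direction. Those 3 cells were chosen as low in these same 20 genes, so the change cannot be read apart from that choice.

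Serpine2, a secreted protease inhibitor, had the largest of these differences, -4.28, or -3.55 without cells 23, 39 and 78. The 9 Hox9-only cells held 1.26, 78.8, 82.6, 91.7, 105.1, 115.2, 221.2, 558.5 and 1253 TPM. The 31 others ranged from 0 to 391.3 TPM with a median of 1.02, and Serpine2 was detected in 16 of them. The Hox9-only cells were high but for 1, and the ranges overlap. The highest value, 1253 TPM, was in cell 23. Rps27, a ribosomal protein gene, was next (-3.75), but it has near-identical copies and is uncertain. Rab13, a small GTPase of cell junctions, was higher in the Hox10 to Hox13 cells (3.66), at a median of 30.8 TPM in the Hox10 to Hox13 cells and 0.45 TPM in the Hox9-only cells. Dnajc15 (3.53) and Ppt1 (-3.35) followed.

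Hox cofactors, with no call between members and cells without, gave calls here. Meis1 ranged from 0 to 1551 TPM with a median of 25 in the Hox10 to Hox13 cells, and from 0 to 370.9 TPM with a median of 0.28 in the Hox9-only cells, a difference of 2.53, or 3.25 without cells 23, 39 and 78. The highest Hox9-only value was in cell 39. Meis2 had medians of 27.9 and 0.95 TPM (2.14). Pknox1, of the same group of cofactors, went the other way, with medians of 1.19 and 49.03 TPM (-1.30). Of 13 retinoic acid genes 5 were called higher and 1 lower, among them Crabp2, a retinoic acid carrier, with medians of 30.9 and 0 TPM (1.94). Over all genes 8.16% were called higher and 8.88% lower in this comparison. Of 16 genes of G2 and mitosis 0 were called higher and 4 lower, with Ccnb2 at 299.8 TPM in the Hox9-only cells and 87.9 TPM in the others (-2.45). Without those 3 cells 2 were called higher and 2 lower, where 2422 of all 11127 genes were called. Lin28b, an RNA-binding protein of early development, was lower too (-2.20). Gja4 (0.75), Mecom (0.37) and Gata2 (-0.15) were not called in this comparison. Meis2, Pknox1, Crabp2, Ccnb2 and Lin28b were named after their values were seen.

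The 7 index sets of 12 cells held 3 to 8 members each, and set 7 held 0 cells without and gave no difference. Within the other 6, where as few as 2 cells stand on one side, 2208 to 3714 genes were higher by 1 and 1551 to 2352 lower. The arterial median was positive in 5 of the 6 sets, from 0.61 to 0.99, and was -0.13 in set 4. Of the 857 higher genes 182 were positive within all 6 sets and of the 141 lower genes 22 were negative, against 425 of all 11127 genes with 1 sign in all 6. The called genes were chosen on these same cells. A higher share among them follows from that choice and is no separate support.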

How the data were processed

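Each of the 84 samples is 1 cell. The authors deposited TPM per gene and cell, 20308 genes in all, and the values of a cell sum to 999998 to 1000002. Per the submitters' processing notes, CASAVA 1.8.2, RSEM 1.2.3, Bowtie 0.12.9 and mm10 were used; how they were run, and on which annotation, is not given in the sources used here. Per the labels' protocols, full-length cDNA (SMARTer) and Nextera XT libraries were sequenced as single reads of 67 bp, with 24 on a lane. TPM keeps no depth, so the reads behind each value are unknown, and a 0 can be a transcript missed in capture.

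Values were used as log2(TPM + 1) in Python 3.11.15 with pandas 2.3.3, numpy 2.4.6 and scipy 1.17.1. This scale understates differences of low genes. The linear term adds the number of genes at 1 TPM or more to a least-squares model of set membership. The calculation was tested on simulated data. No 2 cells were identical, and no doublet caller was run on so few cells.

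The members and the 26 gene lists were chosen with earlier results of these data known. Genes named are the Hox9 to Hox13 genes, the 15 largest differences each way, the 2 largest of each list with its most often detected gene, and the 5 largest within the members; Cxcr4, Cd34, Kit, Acvrl1, Runx1, the rare arterial genes, Dazl, Hoxa7, Hoxb7, Hoxc5 and Hoxd8 were named after their values were seen. The CpG count was also chosen after seeing the data, as were the cells called apart by markers. Symbols matched RefSeq (GRCm38.p6) for 18956 genes (93.3%), the source of coordinates and promoters. Protein sequences were not used here, and values of 1 list member are not reported here. Alternatives tried were a pseudocount of 10, other detection filters and TPM limits, median-of-ratios scaling, and leaving out index sets, cells or marker classes.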

Additional observations from a re-analysis of the deposited data

How the results depend on the processing

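The choice of members set their share: with a limit of 1 TPM it was 71.4%, and with 100 TPM 13.1%. The counts of genes past the fold moved widely. A pseudocount of 10 gave 66 higher and 13 lower. Comparison cells under 10 TPM gave 356 higher. Members at 100 TPM gave 876 lower beside 1172 higher. Leaving out the cells with 3 or more mesenchyme markers gave 1443 and 522, the linear term for genes detected 479 and 414, and both together, added after seeing the data, 1004 and 1004. Cells with 6000 to 8000 genes detected, also added, gave 717 and 436. Leaving out the cells that stand apart by markers, added too, gave 923 and 172. The arterial median, 0.63, was 0.55 there, 0.25 with a pseudocount of 10, 0.30 with 6000 to 8000 genes and 0.32 with comparison cells under 10 TPM. Leaving out each index set gave 903 to 1113 higher and 156 to 276 lower genes, where sets 1, 5 and 6 moved the lower count past 1.5 times (256, 276 and 236), and leaving out each of 67 cells 764 to 962 and 116 to 172. The 1896 genes called within the members became 318 with a pseudocount of 10 and 2020 to 2705 without an index set, and 2422 without the cells that stand apart. Only Col3a1 (0.49, and 0.54 with the linear term) and Hoxc5 (0.17 and 0.0935) changed sign, both without the mesenchyme-marker cells. Col3a1 is itself 1 of the markers by which those cells were left out. The cause of these changes was not tested. The 30 leading genes kept their sign under every setting in which they were compared. Of the arterial and hemogenic genes, Gja4 was past 1 in 18 of 19 settings, Mecom in 18 of 20, Gata2 in 17 of 20 and Notch4 in 14 of 20. Leaving out 1 index set ended 17 calls of named genes in at least 1 case, with the smallest values at 0.94 for Notch4 (set 1), 0.99 for Gata2 (set 5), 0.98 for Cd34 (set 1), 0.63 for Sox18 (set 6), 0.60 for Kit (set 6), 0.77 for Cxcr4 (set 1), 0.91 for Mcm7 (set 5), 0.50 for Ccne1 (set 5), 0.72 for Ccnb1 (set 5), 0.78 for Tpx2 (set 1), 0.59 for Sall4 (set 1), 0.82 for Isl1 (set 3), -0.81 for Col3a1 (set 3), -0.85 for Fosb (set 3), -0.68 for Hoxc5 (set 2), -0.96 for Aldh18a1 (set 1) and -0.99 for 2700062C07Rik (set 5). Leaving out a single cell could bring Cxcr4 to 0.90, Kit to 0.92, Col3a1 to -0.86, Sall4 to 0.83, Tpx2 to 0.82, Fosb to -0.90 and Hoxc5 to -0.68, while the other named genes kept their call in all 67 cases. Of 50 named genes' 993 values, 975 moved by less than their SD between index sets. That SD is wide, since it comes from sets with as few as 2 cells on one side. The settings also share most cells, so this count says little on stability. No paired analysis was possible because the labels give 1 group with no numbers shared between groups; values within index sets stand in the report.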

Other observations

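Some lists not described above held few or no calls. Of 3 smooth muscle or pericyte genes compared, 0 were called, and the median was -0.62. Gata3, on the epithelial list, was detected in 13 of 43 members, up to 731.5 TPM, and in 5 of 24 cells without, a difference of 0.89. Of the 4 Y-linked genes, 3 or more were at 1 TPM in 31 of 43 members and 14 of 24 cells without, and none in 2 and 3 cells. Ddx3y differed by 0.80 and Uty by 0.85.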
